A study of Mus musculus with 19 samples.

Results

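The circadian clock genes described here are 10 genes chosen by name, Arntl, Per1, Per2, Per3, Cry1, Cry2, Nr1d1, Nr1d2, Dbp and Tef, of the 55487 genes listed for each library. Gene coordinates are those of GENCODE M21 on GRCm38. All 10 clock genes were among the 17875 genes that passed a filter on low counts. Their RNA was measured by sequencing in crypts isolated from the small intestine of 19 C57BL/6 mice, either wild type (NT+/+) or knockout (NT-/-) for neurotensin, a peptide hormone of the gut. The mice were fed ad libitum (AL) or fasted for 48 hours (Fast) with free access to water, which gave 5 NT+/+ AL, 4 NT-/- AL, 5 NT+/+ Fast and 5 NT-/- Fast mice. Per the study's methods, the mice were 10 to 16 weeks old, of both sexes, and housed under 14 hours of light and 10 hours of dark, and the controls were littermates matched for sex and age. The methods also describe an Lgr5-EGFP-IRES-CreERT2 allele in mice of both genotypes, which the labels of these libraries do not name.

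The circadian clock is a feedback loop of transcription that runs in nearly every cell, including those of the intestinal epithelium. A dimer of ARNTL (also called BMAL1) and CLOCK binds E-box sequences and activates the Per and Cry genes, whose proteins then repress that dimer, while the nuclear receptors encoded by Nr1d1 and Nr1d2 repress Arntl in a second loop. DBP and TEF are PAR bZIP transcription factors that carry the rhythm to output genes through D-box sequences, and meal times are known to set clocks in the gut.

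Fasting began at 9 AM, and the hour at which the ad libitum-fed mice were killed is not given in the sources used here. Each group was sampled without a time series, so a change in a gene's level and a shift in its daily phase cannot be told apart. The libraries held 9059457 to 35068711 expected counts (median 18541819), and mitochondrial genes took 3.27% to 5.90% of them. The targeted gene, Nts, lay at 4.98 to 8.59 CPM (read counts scaled to the library's size) in the 10 NT+/+ mice and at 0.145 to 0.793 CPM in the 9 NT-/- mice. One library, NT+/+ Fast replicate 5, carries a knockout genotype label against its title and was kept with its title's group, within whose Nts range it lay.

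After fasting, 7 of the 10 clock genes rose in crypts of both genotypes, and none was called lower in the fit without a replicate block. With mice blocked by the number in their file names, Arntl was called lower in NT+/+ mice (edgeR, adjusted p = 0.0299). The 7 were the same in NT+/+ and NT-/- mice, namely Per1, Per3, Cry2, Nr1d1, Nr1d2, Dbp and Tef. Dbp and Tef rose the most, by more than 4-fold, whereas Per2, Cry1 and Arntl did not pass the test without a block in either genotype. Among all genes tested, edgeR's quasi-likelihood test called 11.2% higher and 10.4% lower after fasting in NT+/+ mice, and 12.5% higher and 12.6% lower in NT-/- mice (Benjamini-Hochberg adjusted p below 0.05). The median log2 fold change of the 10 clock genes was 1.06 in NT+/+ and 1.15 in NT-/- mice, against -0.01 and -0.02 over all genes tested. Every fasted mouse lay above every fed mouse for 5 of the 10 clock genes in NT+/+ mice, where 7.63% of all genes did so, and for 7 of the 10 in NT-/- mice, where 10.5% did so. The genes were chosen with earlier results of these data known, so these counts describe them and do not test them as a set. The values are levels in bulk RNA, in which more cells of a type and more RNA per cell cannot be told apart.

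**Figure D1:**
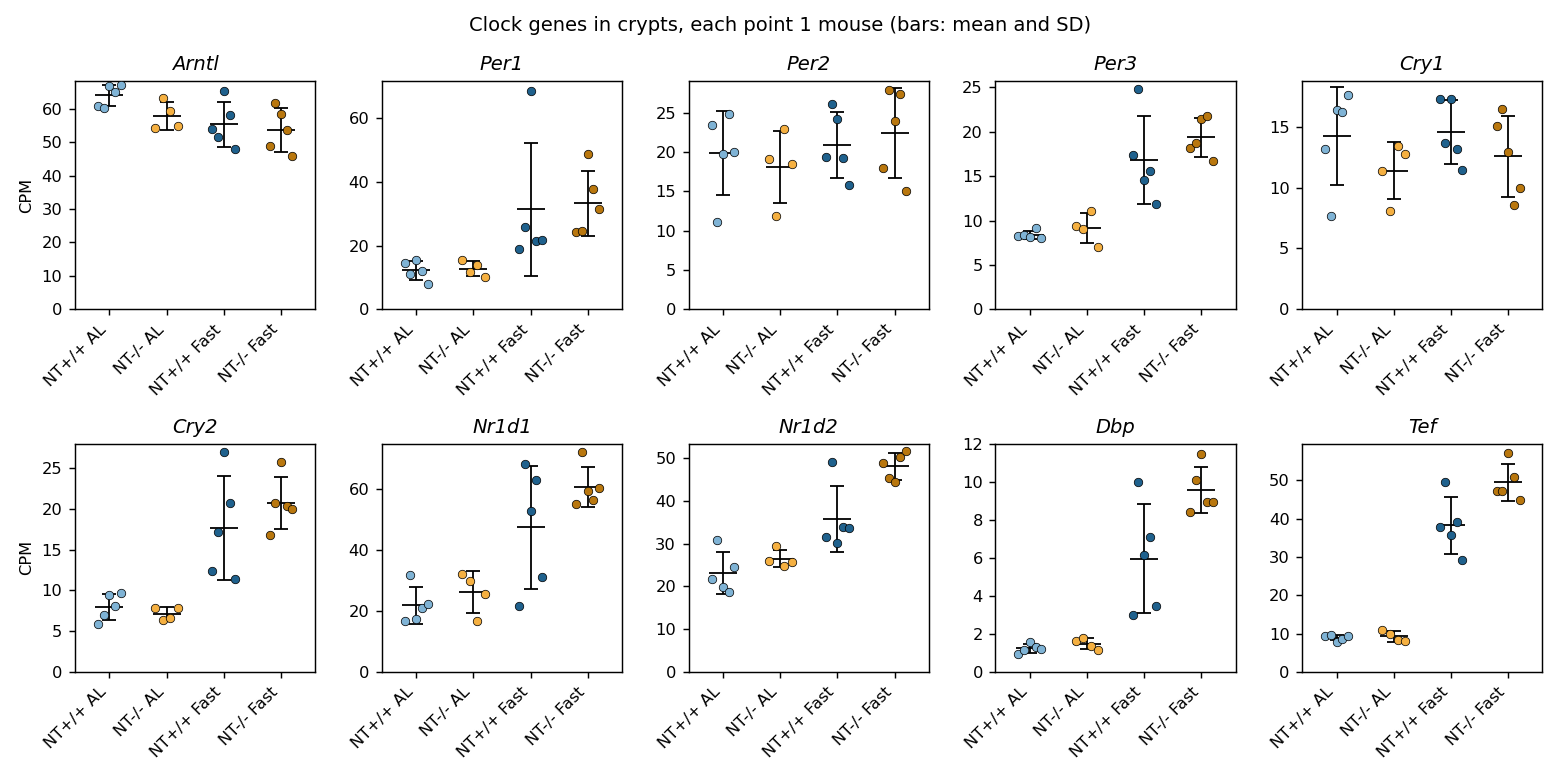
Each panel plots 1 clock gene in CPM (linear axis from 0) in the 4 groups. Points are single mice, and bars give the mean and SD. The fasted mice lie above the fed mice of the same genotype for Tef and Dbp without overlap (Tef 29.1 to 57.1 against 7.93 to 10.9 CPM), while the groups overlap for Per2 and Cry1.

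Markers of several cell types moved with diet as well. Of all genes tested, 11.2% were called higher and 10.4% lower in NT+/+ mice, and 12.5% higher and 12.6% lower in NT-/- mice. Villus enterocyte markers rose in 5 of 5 genes in both genotypes, and their summed level was 1044 to 2794 CPM in NT+/+ AL, 2964 to 8437 CPM in NT+/+ Fast, 1534 to 3036 CPM in NT-/- AL and 6154 to 8576 CPM in NT-/- Fast mice. Dividing cell markers fell in 2 of 3 genes in NT+/+ and 3 of 3 in NT-/- mice, from sums of 1293 to 1473 CPM to 830 to 1120 CPM and from 1229 to 1346 CPM to 711 to 942 CPM. Crypt base stem cell markers fell in 1 of 4 and 2 of 4 genes, from sums of 1551 to 2574 CPM to 837 to 1800 CPM in NT+/+ and from 1356 to 2215 CPM to 868 to 1183 CPM in NT-/- mice. These sums are mostly Olfm4 (1809 ± 379 CPM in NT+/+ AL mice), which fell in both genotypes, and Smoc2 fell in NT-/- mice. Lgr5 and Ascl2, the defining markers at lower levels, had log2 fold changes of 0.29 and 0.63 in NT+/+ and -0.02 and 0.12 in NT-/- mice and did not pass the test. General epithelial markers (0 of 6 called, sums 5098 to 6700 CPM) and Paneth cell markers (0 of 4, 11910 to 29960 CPM) were present in every library and passed no fasting test. Leukocyte markers summed to 328 to 922 CPM, with 0 of 8 and 1 of 8 called higher, the latter near the share of all genes. Stromal markers summed to 2.40 to 10.4 CPM with Des at 0 in 3 libraries, and enteric nerve markers to 0.566 to 2.08 CPM with Uchl1 at 0 in 12. The part of these shifts in the clock gene results was not tested.

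The output factors Dbp and Tef showed the largest increases of the 10. Dbp (ENSMUSG00000059824, chr7:45705088-45710203, + strand) measured 0.960, 1.16, 1.59, 1.32 and 1.21 CPM in the 5 NT+/+ AL mice and 3.01, 10.03, 6.17, 7.14 and 3.47 CPM in the 5 NT+/+ Fast mice. In NT-/- mice Dbp was at 1.65, 1.79, 1.35 and 1.17 CPM when fed and at 8.44, 10.1, 11.5, 8.98 and 8.98 CPM when fasted. All fasted mice exceeded all fed mice, and the NT+/+ Fast group was spread more widely than the NT-/- Fast group. The log2 fold change of Dbp was 2.26 ± 0.27 (SE) in NT+/+ mice (4.79-fold, adjusted p = 8.65e-06) and 2.68 ± 0.29 in NT-/- mice (6.39-fold, adjusted p = 2.48e-06). Its values rested on 20 to 199 counts per mouse.

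Tef had the smallest standard errors of the 7 genes that rose. Levels of Tef (ENSMUSG00000022389, chr15:81802421-81826863, + strand) were 9.45, 9.52, 7.93, 8.63 and 9.38 CPM in NT+/+ AL mice and 37.9, 49.7, 35.8, 39.2 and 29.1 CPM in NT+/+ Fast mice. The corresponding NT-/- levels of Tef were 10.9, 9.85, 8.23 and 8.10 CPM in fed mice and 47.4, 47.2, 57.1, 50.9 and 44.8 CPM in fasted mice. The lowest fasted mouse therefore stood well above the highest fed mouse in each genotype. Tef rose by 2.09 ± 0.12 on the log2 scale in NT+/+ mice (4.25-fold, adjusted p = 1.52e-09) and by 2.41 ± 0.13 in NT-/- mice (5.31-fold, adjusted p = 1.06e-09).

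The Period genes encode the repressor proteins whose turnover paces the clock, and they did not move as a group. Per1 (ENSMUSG00000020893, chr11:69095217-69109960, + strand) measured 14.5, 11.2, 15.5, 12.1 and 7.98 CPM in NT+/+ AL mice and 19.1, 25.9, 68.7, 21.4 and 21.8 CPM in NT+/+ Fast mice. In NT-/- mice Per1 was at 15.4, 11.6, 13.9 and 10.01 CPM when fed and at 24.2, 24.6, 48.8, 37.7 and 31.4 CPM when fasted. Fed and fasted mice did not overlap in either genotype, but replicate 3 of the NT+/+ Fast group stood far above its 4 companions. The log2 fold change of Per1 was 1.36 ± 0.31 in NT+/+ mice (adjusted p = 0.00342) and 1.39 ± 0.33 in NT-/- mice (adjusted p = 0.00411). Without that replicate the NT+/+ value fell to 0.85 (adjusted p = 0.00718).

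Per3 (ENSMUSG00000028957, chr4:151003652-151044665, - strand) lay between 7.98 and 9.13 CPM in all 5 NT+/+ AL mice and at 17.4, 24.8, 14.5, 15.6 and 11.8 CPM in NT+/+ Fast mice. Per3 was at 9.38, 9.09, 11.1 and 6.98 CPM in NT-/- AL mice and at 18.2, 18.7, 21.4, 21.8 and 16.8 CPM in NT-/- Fast mice. The fed NT+/+ mice were almost identical to each other, and no fasted mouse of either genotype reached down to the fed range. Per3 rose by 1.00 ± 0.16 on the log2 scale in NT+/+ mice (2.00-fold, adjusted p = 0.000174) and by 1.08 ± 0.17 in NT-/- mice (2.12-fold, adjusted p = 0.000126).

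Per2 (ENSMUSG00000055866, chr1:91415982-91459324, - strand), in contrast, ranged over 11.1 to 24.9 CPM in NT+/+ AL and 15.7 to 26.1 CPM in NT+/+ Fast mice. The NT-/- ranges of Per2 were 11.8 to 22.9 CPM when fed and 15.0 to 27.9 CPM when fasted. The groups overlapped over most of their width. The log2 fold change of Per2 was 0.08 (95% confidence interval -0.37 to 0.52) in NT+/+ mice and 0.30 (-0.18 to 0.78) in NT-/- mice, with adjusted p = 0.846 and adjusted p = 0.378.

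The Cryptochromes, which bind the Period proteins and act as the strong repressors of the loop, divided in the same way. Cry2 (ENSMUSG00000068742, chr2:92403646-92434043, - strand) measured 5.85, 6.98, 9.45, 8.07 and 9.67 CPM in NT+/+ AL mice and 12.4, 17.1, 27.0, 20.7 and 11.4 CPM in NT+/+ Fast mice. In NT-/- mice Cry2 was at 7.79, 6.33, 6.64 and 7.88 CPM when fed and at 16.9, 20.8, 25.8, 20.4 and 19.97 CPM when fasted. No fasted mouse overlapped the fed mice of its genotype. Cry2 rose by 1.15 ± 0.20 on the log2 scale in NT+/+ mice (2.22-fold, adjusted p = 0.000423) and by 1.53 ± 0.22 in NT-/- mice (2.89-fold, adjusted p = 4.81e-05). Cry1 (ENSMUSG00000020038, chr10:85131700-85185064, - strand) lay within 7.65 to 17.6 CPM in NT+/+ AL mice and 11.5 to 17.3 CPM in NT+/+ Fast mice, and within 8.12 to 13.4 CPM and 8.58 to 16.5 CPM in the NT-/- groups. The log2 fold change of Cry1 was 0.04 (-0.40 to 0.48) in NT+/+ and 0.14 (-0.33 to 0.61) in NT-/- mice (adjusted p = 0.918 and adjusted p = 0.707).

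The receptor genes Nr1d1 and Nr1d2, which encode REV-ERB alpha and REV-ERB beta, both rose. Nr1d1 (ENSMUSG00000020889, chr11:98767932-98775333, - strand) was at 16.6, 31.7, 17.3, 21.1 and 22.3 CPM in NT+/+ AL mice and at 21.5, 68.2, 52.7, 63.0 and 31.2 CPM in NT+/+ Fast mice. Nr1d1 measured 32.2, 29.7, 16.6 and 25.6 CPM in NT-/- AL mice and 55.2, 71.9, 59.3, 56.3 and 60.3 CPM in NT-/- Fast mice. In the NT+/+ mice 3 fasted animals were high and the other two, replicates 1 and 5, reached into the fed range, whereas the NT-/- groups did not overlap. The log2 fold change of Nr1d1 was 1.11 ± 0.26 in NT+/+ mice (2.16-fold, adjusted p = 0.00391) and 1.21 ± 0.27 in NT-/- mice (2.32-fold, adjusted p = 0.00279).

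Nr1d2 (ENSMUSG00000021775, chr14:18204054-18239127, - strand) measured 21.8, 30.9, 19.9, 18.7 and 24.6 CPM in NT+/+ AL mice and 31.6, 49.2, 30.1, 33.9 and 33.7 CPM in NT+/+ Fast mice. The NT-/- mice had 25.9, 29.4, 24.8 and 25.8 CPM of Nr1d2 when fed and 48.8, 45.4, 44.4, 50.2 and 51.7 CPM when fasted. The lowest NT+/+ Fast mouse fell just under the highest NT+/+ AL mouse, and replicate 2 of the NT+/+ Fast group stood apart from the other 4. Nr1d2 rose by 0.62 ± 0.13 on the log2 scale in NT+/+ mice (1.53-fold, adjusted p = 0.00233) and by 0.86 ± 0.14 in NT-/- mice (1.82-fold, adjusted p = 0.000194).

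Arntl, the activator, had the lowest within-group SD of the 10 over all mice (0.138 on the log2 scale), though not within each group taken alone. Levels of Arntl (ENSMUSG00000055116, chr7:113207465-113314126, + strand) were 60.9, 60.2, 66.8, 65.0 and 67.0 CPM in NT+/+ AL mice and 53.8, 51.6, 65.2, 58.2 and 47.8 CPM in NT+/+ Fast mice. In NT-/- mice Arntl was at 54.2, 63.2, 59.2 and 54.8 CPM when fed and at 48.9, 61.6, 58.4, 53.7 and 45.8 CPM when fasted. Fed and fasted mice overlapped in both genotypes, with lower group means after fasting. The log2 fold change was -0.21 ± 0.09 in NT+/+ mice (adjusted p = 0.0949) and -0.11 ± 0.09 in NT-/- mice (adjusted p = 0.427). With the set number of the file names as a replicate block, the NT+/+ value was -0.22 and passed the test (adjusted p = 0.0299), as it did without NT+/+ Fast replicate 3 (-0.27, adjusted p = 0.0285).

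**Figure D2:**
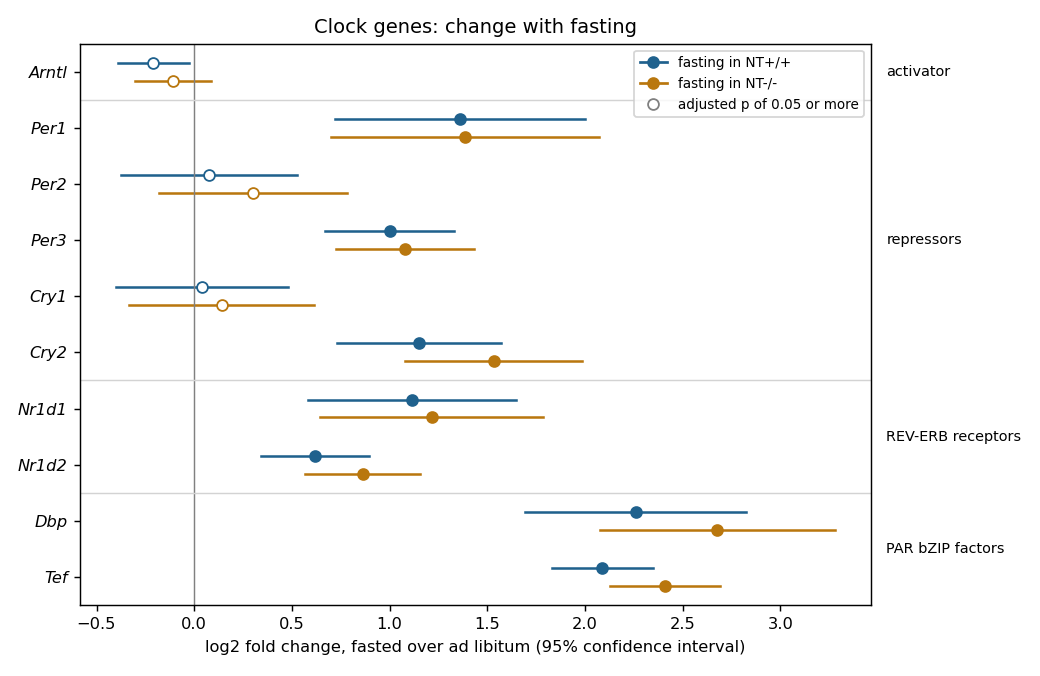
The x axis gives the log2 fold change of fasted over ad libitum-fed mice from edgeR, with 95% confidence intervals, for the 10 clock genes ordered by role. Blue marks NT+/+ and brown NT-/- mice, and open points did not pass an adjusted p of 0.05. Values run from -0.21 for Arntl in NT+/+ mice to 2.68 for Dbp in NT-/- mice.

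The file names carry a number from 1 to 5 that recurs in each group, and mice with the same number deviated from their group means together. For genes whose fed and fasted mice do not overlap, any pairing gives the same direction, so the sets bear only on the others. Of the genes that rose, these were Nr1d1 and Nr1d2 in NT+/+ mice, and both were higher in the fasted mouse in 5 of 5 sets. For Tef the within-set differences of log2(CPM + 1) ran from 1.54 to 2.27 in NT+/+ and from 2.02 to 2.49 in NT-/- mice. For Per1 they ran from 0.37 to 2.08 in NT+/+ and from 0.62 to 1.56 in NT-/- mice, the widest NT+/+ range among the 7. Arntl was lower in the fasted mouse in 5 of 5 and 4 of 4 sets, with differences of -0.478 to -0.034 in NT+/+ and -0.252 to -0.035 in NT-/- mice. The fasted mouse had more Per2 in 2 of 5 and 2 of 4 sets, and more Cry1 in 3 of 5 and 2 of 4.

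Because 7 of the genes rose together, the DNA just before their annotated starts was read from RefSeq (GRCm38.p6) for short sequences that clock factors are known to bind. Windows of 250 bases upstream were given for 9 of the 10 genes, all but Per2, 12 windows in all. The letters searched, on both strands, were the E-box CACGTG, the related CACGTT, the D-box TTATGTAA with its variant TTATGCAA, the receptor half-site AGGTCA and the cyclic AMP response element TGACGTCA. The E-box stood in 4 of the 12 windows, those of Per1 and Cry1 and both windows of Tef, and in 6.02% of 32851 windows of the same length. CACGTT was read in Cry1, Cry2 and Nr1d1 (3.85% of all windows), AGGTCA in Per1 and Nr1d2 (14%), and TGACGTCA in none of the 12 (1.55%). The D-box was present in Per3 alone, in 2 copies 205 and 158 bases before the start (0.819% of all windows), and its variant in Per1 alone, 24 bases before the start (0.694%). No match overlapped another. Of the 5 windows that carry the E-box or D-box letters, 4 are shown, leaving out the Tef window that lies wholly in annotated exon, with each match in capitals and 5′ to 3′ on the strand of the gene.
Per1, chr11:69098699-69098948, + strand, inside the gene before an internal start: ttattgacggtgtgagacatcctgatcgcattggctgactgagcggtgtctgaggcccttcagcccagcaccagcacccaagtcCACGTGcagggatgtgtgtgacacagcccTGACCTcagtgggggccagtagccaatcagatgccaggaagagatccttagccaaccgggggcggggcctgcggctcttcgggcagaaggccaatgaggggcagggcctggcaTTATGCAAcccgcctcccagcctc
Per3, chr4:151044666-151044915, - strand, directly before the gene: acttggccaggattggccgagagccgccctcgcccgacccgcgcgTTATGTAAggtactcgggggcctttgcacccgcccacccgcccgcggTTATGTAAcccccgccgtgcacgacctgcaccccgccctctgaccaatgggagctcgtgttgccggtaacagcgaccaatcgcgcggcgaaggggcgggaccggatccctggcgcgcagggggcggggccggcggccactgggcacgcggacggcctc
Cry1, chr10:85185055-85185304, - strand, before and overlapping 10 bases of the annotated gene: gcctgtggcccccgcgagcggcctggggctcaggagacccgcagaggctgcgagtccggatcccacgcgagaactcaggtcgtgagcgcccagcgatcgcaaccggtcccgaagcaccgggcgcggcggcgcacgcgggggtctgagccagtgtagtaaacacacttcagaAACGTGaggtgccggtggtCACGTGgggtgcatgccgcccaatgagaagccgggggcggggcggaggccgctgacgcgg
Tef, chr15:81811164-81811413, + strand, intronic before an internal start: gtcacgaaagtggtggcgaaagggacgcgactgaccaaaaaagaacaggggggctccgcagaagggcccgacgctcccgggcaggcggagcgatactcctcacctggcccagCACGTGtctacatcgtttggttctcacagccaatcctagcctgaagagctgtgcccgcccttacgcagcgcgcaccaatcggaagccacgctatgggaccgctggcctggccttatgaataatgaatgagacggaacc
Any link between these letters and the fasting change was not tested, since only short windows were read and Per2 had none. Of the genes with the E-box letters CACGTG, Per1 and Tef rose and Cry1 did not pass the test. With no CACGTG in these windows, Per3, Cry2, Nr1d1, Nr1d2 and Dbp rose, and Arntl did not pass the test without a block. The Dbp window overlaps 159 bases of the gene's annotated exons, so it is only partly upstream of the annotated gene.

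Neurotensin genotype was not accompanied by a called difference in any clock gene. In ad libitum-fed mice 0 of the 10 passed an adjusted p of 0.05 with edgeR, where 0.00559% of all genes did (1 gene, Nts), and 0 of the 10 had an unadjusted p below 0.05, where 1.67% of all genes did. In fasted mice 0 of the 10 passed as well (0.00559% of all genes, again Nts alone), and 3 of the 10 had an unadjusted p below 0.05, where 9.14% of all genes did. DESeq2 called 0 of the 10 in fed mice, where it called 0.0168% of all genes, and 0 of the 9 that it gave an adjusted p in fasted mice (lowest 0.0876, for Nr1d2), where it called 1.06% of all genes. It gave Dbp no adjusted p in fasted mice. The 3 were Nr1d2, Dbp and Tef, each with a higher mean in NT-/- Fast than in NT+/+ Fast mice.

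Nr1d2 averaged 35.7 ± 7.7 CPM (SD, n = 5) in NT+/+ Fast and 48.1 ± 3.1 CPM (n = 5) in NT-/- Fast mice. The NT-/- over NT+/+ log2 fold change was 0.43 (0.16 to 0.71) with adjusted p = 0.312. For Dbp the means were 5.96 ± 2.87 and 9.60 ± 1.23 CPM, with a log2 fold change of 0.69 (0.18 to 1.20) and adjusted p = 0.368. For Tef they were 38.3 ± 7.4 and 49.5 ± 4.8 CPM, with a log2 fold change of 0.37 (0.13 to 0.61) and adjusted p = 0.335. NT+/+ Fast replicate 2 alone lay within the NT-/- Fast range for each of these 3 genes. In fed mice the largest genotype difference was that of Cry1, at -0.31 (-0.78 to 0.15), and Tef differed by 0.05 (-0.22 to 0.32).

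A difference in the fasting response between genotypes was tested by the interaction term of edgeR. It called 0 of the 10 clock genes, and 0% of all genes tested passed, while 0 of the 10 and 2.71% of all genes had an unadjusted p below 0.05. DESeq2 likewise called 0 of the 10 and 0% of all genes. The fasting change was estimated higher in NT-/- than in NT+/+ mice for 10 of 10 clock genes, against 48.0% of all genes tested, with a median difference of 0.16 on the log2 scale against -0.01. For Arntl this was a smaller decrease (-0.11 against -0.21). The 10 genes were measured in the same mice, and several deviated together, so they are not separate results. With the file-name set number as a replicate block the count was 9 of 10, and over 28 alternatives it was 7 to 10 and reached 10 in 12 of them. It was 7 without NT+/+ Fast replicate 5, with Per1, Per3 and Nr1d1 below 0. Dbp differed by 0.42 (-0.39 to 1.22) and Per1 by 0.03 (-0.89 to 0.95), and without NT+/+ Fast replicate 3 the value of Per1 was 0.54. For Tef the interval was -0.05 to 0.69, and for Arntl, which had the smallest SE of the 10 (0.13), it was -0.17 to 0.36.

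Levels were compared between genes in TPM, which is scaled to transcript length as well as to library size. In fed mice Arntl was the most abundant of the 10, at 27.7 ± 3.3 TPM in NT+/+ (SD, n = 5) and 24.3 ± 3.0 TPM in NT-/- (n = 4), with no overlap with the next gene, Nr1d1. Dbp was the lowest, at 1.08 ± 0.18 and 1.19 ± 0.20 TPM, and did not overlap Per3 above it. Between these ends most neighbours overlapped, in the NT+/+ AL order Nr1d1, Nr1d2, Cry1, Per2, Per1, Tef, Cry2 and Per3. The NT-/- AL order differed from it in placing Tef above Per2 and Per1, whose ranges all overlapped, and in a gap between Nr1d2 and Cry1.

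In fasted mice the ladder of levels was rearranged. Arntl (23.5 ± 3.8 TPM) and Nr1d1 (22.3 ± 10.7 TPM) overlapped in NT+/+ Fast mice, and Nr1d1 was the highest in NT-/- Fast mice at 28.3 ± 5.6 TPM, overlapping Arntl at 23.3 ± 4.6 TPM. Tef moved to the third place in both genotypes, at 15.7 ± 4.5 and 18.4 ± 4.6 TPM. Dbp stood at 4.71 ± 2.70 and 7.32 ± 1.55 TPM, and Per3 became the lowest at 3.71 ± 1.13 and 4.20 ± 0.66 TPM. In NT+/+ Fast mice every gene overlapped its neighbour, and in NT-/- Fast mice a gap lay only between Nr1d2 and Per1.

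**Figure D3:**
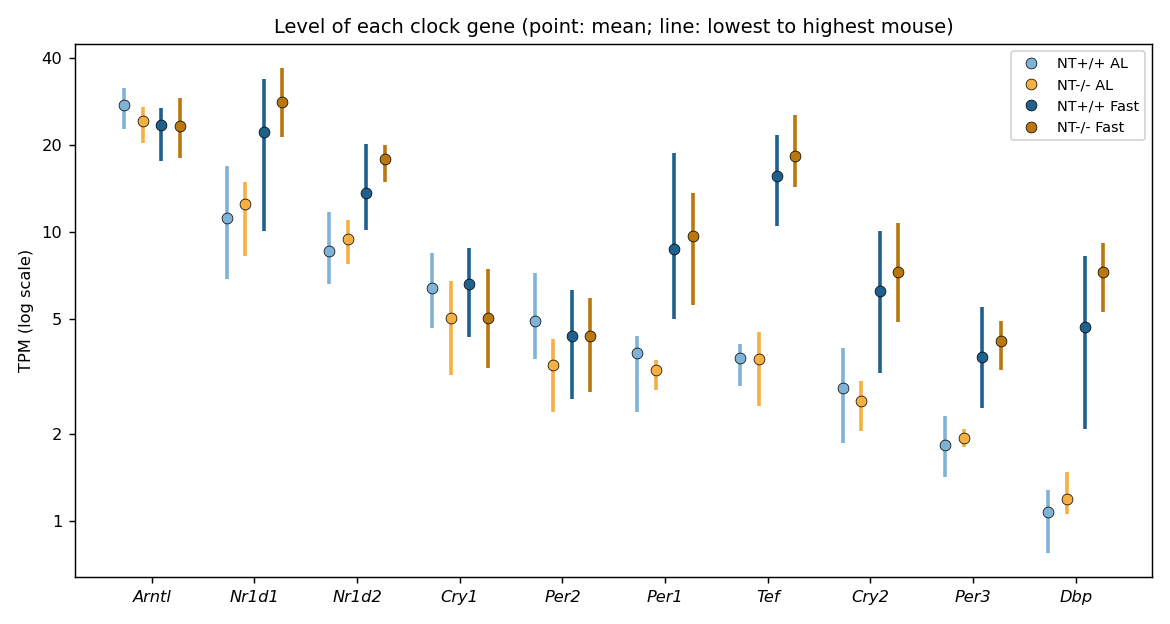
The y axis gives the level in TPM on a log scale for each clock gene, ordered by its mean in NT+/+ AL mice. Points are group means, and lines run from the lowest to the highest mouse. The group means of Arntl stay within 23.3 to 27.7 TPM. By group mean, Tef moves up to rank 3 of 10 in both fasted groups. Dbp moves from rank 10 in both fed groups to rank 8 in NT+/+ Fast and rank 6 in NT-/- Fast mice.

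Mice of the same group differed by very different amounts from gene to gene. The SD of deviations from the group mean, in log2(CPM + 1), was 0.48 for Per1 and 0.45 for Nr1d1, which placed them at percentiles 96 and 95 of all genes tested. Per2 followed at 0.37 (percentile 90.3), Cry1 at 0.35, Dbp at 0.34 and Cry2 at 0.31. The added 1 shrinks the deviations of genes at low CPM, such as Dbp in NT+/+ AL mice (1.25 ± 0.23 CPM). Tef was at 0.185 (percentile 44.5) and Arntl at 0.138 (percentile 22.5), so these were the least variable of the 10 between mice.

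The deviations shared features within the numbered sets. Per1 lay above the group mean in all 3 mice of set 3, by 0.34 to 1.28, and below it in all 4 mice of sets 2 and 5. Nr1d1 lay above the group mean in all 4 mice of set 2, by 0.23 to 0.64. Cry2 was above it in all 3 mice of set 3, by 0.23 to 0.65, and Arntl below it in all 4 mice of set 1. What the set numbers stand for is not given in the sources used here. The mice of a set also shared their sex label, female in sets 1, 2 and 4 and male in sets 3 and 5, with 1 mouse of set 5 unlabelled, so sex and set cannot be fully told apart.

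**Figure D4:**
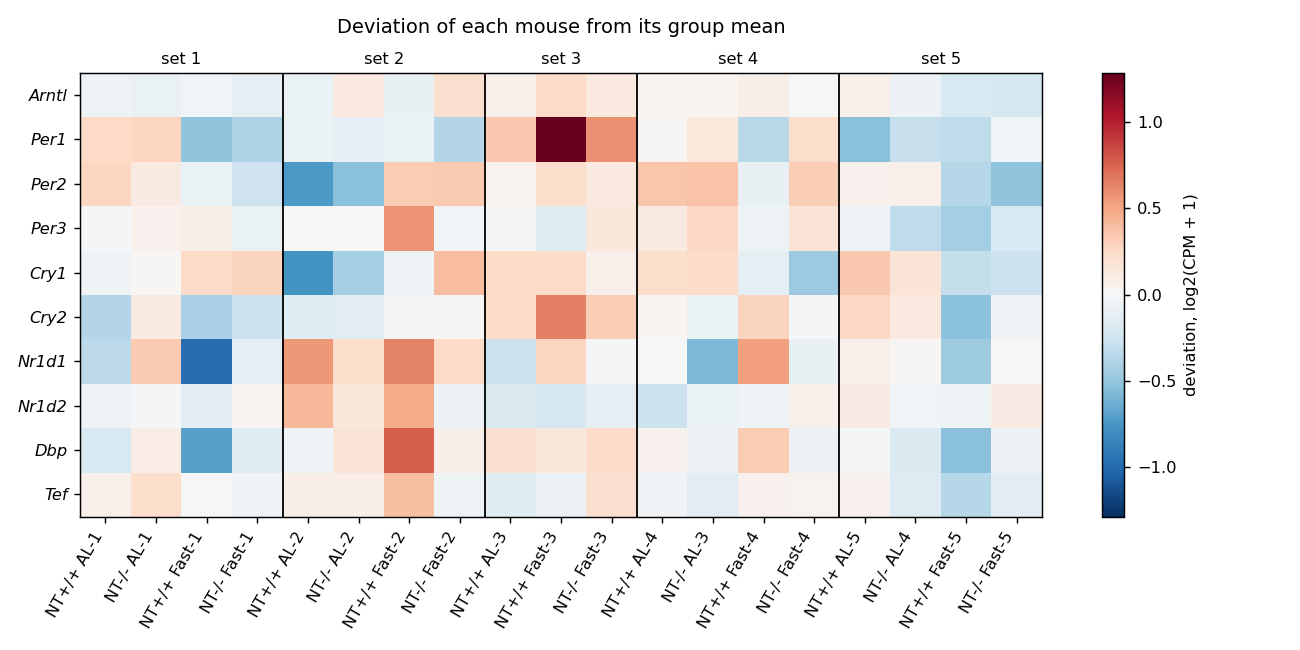
Each column is 1 mouse, grouped by the set number of the file names, and each row 1 clock gene. Color gives the deviation from the mean of the mouse's group in log2(CPM + 1), red above and blue below. Per1 is red in all 3 mice of set 3, with the strongest value, 1.28, in NT+/+ Fast-3.

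Over the 19 mice the deviations of Dbp and Nr1d1 correlated with r = 0.762, those of Per3 and Tef with r = 0.733, those of Cry2 and Arntl with r = 0.632, those of Dbp and Cry2 with r = 0.618 and those of Dbp and Tef with r = 0.616. Per2 and Cry1, neither of which passed the fasting test, correlated with r = 0.610, and Cry1 and Nr1d2 with r = -0.603. These values are descriptions, since the genes were measured in the same libraries and mice share set numbers. Among 13060 other genes with an average log2 CPM of at least 1, those most like Dbp by the same measure were Stx3 (r = 0.832), Neu1 (r = 0.827), Ptpre (r = 0.815), Slc7a9 (r = 0.814) and Gm12992 (r = 0.803). Those most like Arntl were 4933431E20Rik (r = 0.849), 4932442E05Rik (r = 0.844), Gm15657 (r = 0.841), Phykpl (r = 0.841) and Gm26648 (r = 0.839).

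To ask whether mice with more Arntl RNA had more or less of its targets, Arntl was correlated with each of the other 9 genes within each diet, which gave 18 relations. Mice of both genotypes were pooled within a diet, and the permutations treated each mouse as separate. Mice of the 2 genotypes with the same file-name number deviated alike over all genes. Their mean correlation was 0.346 in fasted and 0.315 in fed mice, against -0.085 and -0.08 for different numbers. The permutation p-values therefore do not allow for the sets and are descriptions. None of the 18 relations passed after Benjamini-Hochberg adjustment. The largest Pearson value in fasted mice was that with Per2 (10 mice, r = 0.685, permutation p = 0.0317, adjusted p = 0.482), with Spearman rho = 0.661 (permutation p = 0.0430, adjusted p = 0.365), and r was 0.590 without the 2 mice farthest from the median of Arntl. For Cry2 in fasted mice r was 0.627 (permutation p = 0.0536, adjusted p = 0.482) and rho 0.782 (permutation p = 0.0107, adjusted p = 0.193), and r was 0.708 without those 2 mice. In the 9 fed mice the coefficients lay between -0.427 for Nr1d2 and 0.397 for Cry1 (exact permutation p = 0.252 and exact permutation p = 0.287, both with adjusted p = 0.646). Without the 2 mice farthest from the median of Arntl, the fed value of Cry2 went from 0.365 to 0.846 and that of Nr1d1 from -0.415 to -0.039, so these fed coefficients depended on those mice.

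The wider clock was read through 16 further genes, of which 14 were tested. Of these, 2 rose in both genotypes and none fell, namely Hlf, the third PAR bZIP factor, and Rora, which encodes a nuclear receptor that activates Arntl. Such a share, 2 of 14, is near the 11.2% and 12.5% of all genes called higher in NT+/+ and NT-/- mice. Hlf averaged 1.33 ± 0.38 CPM in NT+/+ AL and 5.34 ± 3.07 CPM in NT+/+ Fast mice, a log2 fold change of 2.00 ± 0.37 (adjusted p = 0.000723), and in NT-/- mice it rose from 1.75 ± 0.22 to 10.8 ± 3.8 CPM, or by 2.61 ± 0.39 (adjusted p = 8.48e-05). Hlf thus rose, as did Dbp and Tef, the other members of its family. Unlike theirs, its fed and fasted NT+/+ mice overlapped (lowest fasted mouse 1.68 CPM, highest fed mouse 1.88 CPM). Rora rose by 0.91 ± 0.19 and 0.87 ± 0.21 on the log2 scale in NT+/+ and NT-/- mice. Clock, the partner of Arntl, averaged 137 ± 12, 139 ± 12, 143 ± 18 and 152 ± 10 CPM in NT+/+ AL, NT-/- AL, NT+/+ Fast and NT-/- Fast mice and did not pass the test. Bhlhe41 and Rorb were too low to be tested.

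Of 10 genes known as clock outputs, 3 rose in NT+/+ mice and 4 in NT-/- mice, where 11.2% and 12.5% of all genes were called higher, and none fell. The list was chosen with earlier results of these data known, so its count is a description. Por, which encodes the reductase that supplies electrons to cytochromes P450, averaged 54.7 ± 3.7 CPM in NT+/+ AL and 160 ± 14 CPM in NT+/+ Fast mice, and rose by 1.55 ± 0.09 and 1.51 ± 0.10 on the log2 scale in NT+/+ and NT-/- mice (adjusted p = 1.74e-09 and adjusted p = 5.95e-09). Pdxk, the pyridoxal kinase gene, rose by 0.57 ± 0.08 and 0.56 ± 0.08, and Nampt, which encodes the rate-limiting enzyme of NAD salvage, by 0.34 ± 0.11 and 0.90 ± 0.12. The genotype difference in the fasting change of Nampt was 0.56 (0.22 to 0.89). It did not pass the interaction test of edgeR after adjustment (adjusted p = 0.9998). Cdkn1a passed in NT-/- mice alone (0.49 ± 0.17, adjusted p = 0.0381), and its fasting change was not shown to differ between genotypes. Por and Pdxk are known targets of the PAR bZIP factors, as background.

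Several genes known to be induced by glucocorticoid hormones, as Per1 is, were measured beside them. Of 5, 4 rose in both genotypes, where 11.2% and 12.5% of all genes were called higher, and none fell. These 5 were also chosen with earlier results of these data known, so the count is a description. Zbtb16 averaged 0.364 ± 0.105 CPM in NT+/+ AL and 13.8 ± 8.5 CPM in NT+/+ Fast mice, a log2 fold change of 5.19 ± 0.67 (adjusted p = 2.11e-05). Sgk1 rose by 3.04 ± 0.45, Fkbp5 by 2.36 ± 0.29 and Tsc22d3 by 0.58 ± 0.10 on the log2 scale in NT+/+ mice, and by 3.16 ± 0.49, 2.36 ± 0.31 and 0.61 ± 0.11 in NT-/- mice. Klf9 did not pass the test in either genotype. Their part in the change of Per1 was not tested.

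**Figure D5:**
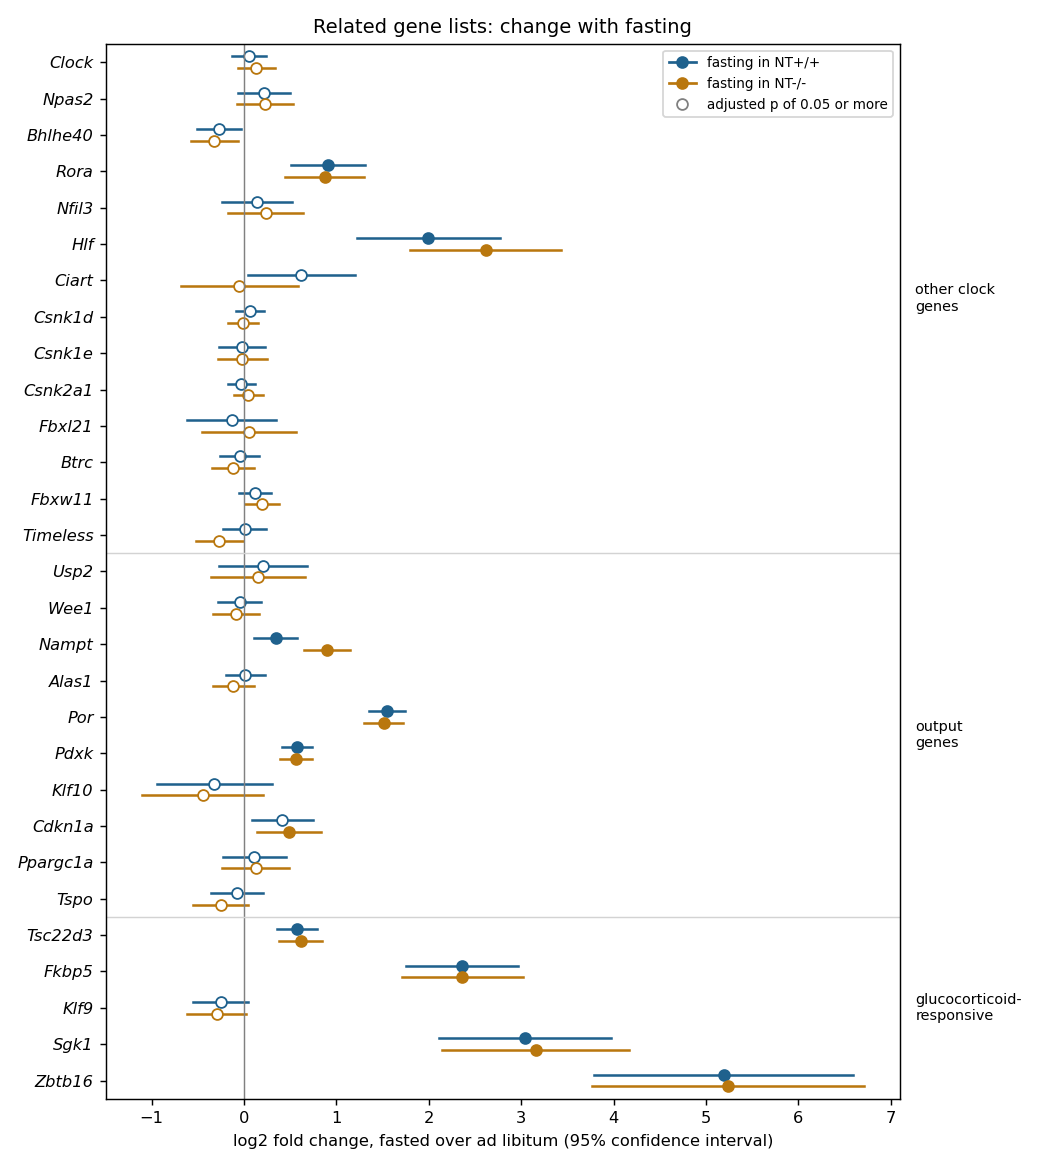
The x axis gives the log2 fold change of fasted over ad libitum-fed mice with 95% confidence intervals for the tested genes of the other clock gene, output and glucocorticoid-responsive lists. Filled points passed an adjusted p of 0.05. Filled points lie to the right of 0 in all 3 lists, up to 5.23 for Zbtb16 in NT-/- mice.

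Some clock genes share their DNA with other genes, and the strand setting of the counting is not given in the sources used here. Nr1d1 overlaps Thra on the opposite strand, which rose by 0.48 ± 0.08 and 0.47 ± 0.08 on the log2 scale in NT+/+ and NT-/- mice. Dbp overlaps Sphk2 on the opposite strand, which had log2 fold changes of 0.40 ± 0.15 and 0.32 ± 0.15 and did not pass the test (adjusted p = 0.0526 and adjusted p = 0.140). Per3 overlaps Camta1 on the same strand, at -0.09 ± 0.12 and -0.06 ± 0.13. Reads from a gene and an overlapping partner cannot be told apart where strand was not used.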

How the data were processed

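RNA was isolated from small-intestinal crypts of 19 mice, and ribosomal RNA-depleted libraries were sequenced with single-end reads. Per the labels and the study's methods, the authors trimmed reads with Trimmomatic (0.39) and mapped them to Ensembl GRCm38 transcripts with RSEM. The deposited tables give expected counts, effective length and TPM (transcript abundance scaled to length and library size) per gene. Expected counts were rounded, and genes were matched to symbols through their Ensembl IDs (55227 of 55487). Counts were normalized by TMM, filtered with filterByExpr by group (17875 genes kept) and fitted in 1 edgeR (4.0.16) quasi-likelihood model of the 4 groups, with Benjamini-Hochberg adjustment over all genes tested and a threshold of 0.05. SE was taken from the F statistic, as |log2 fold change| over its root. The 95% intervals used the residual degrees of freedom moderated by edgeR. CPM used TMM library sizes. DESeq2 (1.42.0) was an alternative. Levels between genes were compared in the deposited TPM. Correlations used exact or 100000-resample permutation tests (two-sided). Scripts were tested on simulated data.

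Pairing was checked from the correlation of deviations from group means. Mice with the same number in the file names correlated above 0.1 in every pair of each of the 4 comparisons between groups (26 of 27 pairs over all groups, mean 0.284 against -0.071 for different numbers), and numbers of the titles did not in 2 comparisons. The file names and titles disagree for 2 NT-/- AL mice. Each library is 1 mouse, and the edgeR tests weighed differences against the spread between mice of a group. The main fit did not use the file-name numbers, which entered as a replicate block in an alternative. The named genes were all 10 clock genes, the members of the other clock, output and glucocorticoid-responsive lists called in either fasting comparison, the 5 genes most like Dbp and Arntl, and Nts. Clock and the markers were named in addition. Some genes of these lists and of the markers are not reported here. The members and lists were chosen with earlier results of these data known. The alternatives tried were another filter, upper-quartile scaling, DESeq2, replicate blocks, a sex covariate, regrouping of 1 mouse, only the groups compared, and leaving out each mouse.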

Additional observations from a re-analysis of the deposited data

Results flagged for a closer look

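Of 40 groups of 4 or 5 mice tested over the 10 clock genes, 2 held a mouse that stood apart from its group, where chance alone flags about 1 in 20. Per1 in NT+/+ Fast replicate 3 was at 68.7 CPM, with the nearest mouse at 25.9 CPM, a gap of 0.862 of the group's range. Nr1d2 in NT+/+ Fast replicate 2 was at 49.2 CPM, with the nearest mouse at 33.9 CPM, a gap of 0.803 of the range.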

How the results depend on the processing

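The number of clock genes called after fasting was 7 to 8 of 10 in NT+/+ and 7 in NT-/- mice over all alternatives, and 0 for genotype in either diet and for the difference in fasting response. Of 1060 recomputed values of single clock genes, 1057 kept their direction where called and their side of the threshold. That count includes Dbp for genotype in fasted mice with DESeq2, which had no adjusted p and was counted as not called. Another 3 passed the threshold where the reported value did not, and none reversed. A further limit is that 43 values called in neither setting changed sign. The 3 were Arntl after fasting in NT+/+ mice, at -0.22 with a replicate block by the title number (adjusted p = 0.0430), at -0.22 with a replicate block by the file-name number (adjusted p = 0.0299) and at -0.27 without NT+/+ Fast replicate 3 (adjusted p = 0.0285, edgeR). The replicate block changed no other call. Leaving out NT+/+ Fast replicate 3 also moved Per1 after fasting in NT+/+ mice from 1.36 to 0.85. Leaving out NT-/- Fast replicates 2 and 4, which had under 1.1e+07 counts, was chosen after seeing the data. Over all genes, DESeq2 called 101 genes for genotype in fasted mice and 3 in fed mice, where edgeR called 1 in each, and it gave Dbp no adjusted p in fasted mice. No relation of Arntl passed in any setting, and the order of TPM levels was the same in CPM per kilobase. Dbp is limited by depth, with 20 counts in the lowest mouse.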
